A study of Mus musculus with 4 samples.

Results

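The genes described here carry fatty acids into mitochondria and peroxisomes, oxidise them there and turn part of the product into ketone bodies, together with regulators of these steps. They were chosen by function as a list of 35 symbols, with earlier results of these data known. Each was read from the probe set whose platform annotation gives that symbol alone, taking the one with the highest mean over the 4 arrays. A probe set was found for 34 of the 35 genes, out of 22180 genes with such a probe set on the array, and 34 passed a filter on dim probe sets that 13308 genes passed. Ucp2, which encodes a mitochondrial uncoupling protein, had no probe set of its own symbol in the annotation used and was not analysed here.

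Total liver RNA of C57Bl6 mice aged 16 weeks was measured on 4 Affymetrix arrays, and the RNA of 4 to 5 mice, picked for RNA quality, was pooled for each. The 4 groups were knockout mice (ALB Cre MyD88 lox/lox) on high-fat diet with 60% fat, wild-type mice (MyD88 lox/lox) on high-fat diet, knockout mice on control diet with 9.4% fat, and wild-type mice on control diet. All 4 groups therefore carried the floxed Myd88 gene, and the knockout differed by a Cre recombinase under the albumin promoter, which is active in hepatocytes and leaves the gene in the other cells of the liver. Each group is 1 array with no replicate, so differences between arrays have no test, and the number of arrays limits the precision. The sources used here do not give the length of feeding, the feeding state or the hour at which liver was taken.

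As background, the liver oxidises fatty acids between meals and exports ketone bodies to other tissues. Long-chain fatty acids enter mitochondria bound to carnitine, are shortened there by a repeating cycle of reactions, and pass electrons through the electron transfer flavoprotein to the respiratory chain, while very long and branched chains are first shortened in peroxisomes. The nuclear receptor PPARalpha, with the coactivator PGC-1alpha and the transcription factor CREBH, switches on many of these genes in fasting. MyD88 is the adaptor that carries signals from Toll-like and interleukin-1 receptors.

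The targeted gene Myd88 had log2 values of 6.23 in knockout and 6.44 in wild type on high-fat diet, and of 5.91 in knockout and 6.10 in wild type on control diet. It was lower in knockout on both diets by small amounts, and whether its probe set lies in the deleted part was not analysed here. The tissue label was checked with hepatocyte markers, of which 11 of 12 had a probe set. Their summed linear level was 73056 in knockout and 72093 in wild type on high-fat diet, and 73613 in knockout and 73036 in wild type on control diet.

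Among the members that differed most between arrays, those with a promoter in the RefSeq table were Pdk4, Ehhadh and Ppargc1a, and their promoters are shown so that the values below can be read beside the sequence. Hadha is shown as a gene of the mitochondrial cycle with nearly level values. Each run is the 250 bases before the gene's start, 5′ to 3′ on the gene's strand, from RefSeq on GRCm38.p6, and all 4 genes lie on the minus strand. Capitals mark exact matches on either strand to the CCAAT box (CCAAT) or the GC box (GGGCGG).
Pdk4, chr6:5496279-5496528: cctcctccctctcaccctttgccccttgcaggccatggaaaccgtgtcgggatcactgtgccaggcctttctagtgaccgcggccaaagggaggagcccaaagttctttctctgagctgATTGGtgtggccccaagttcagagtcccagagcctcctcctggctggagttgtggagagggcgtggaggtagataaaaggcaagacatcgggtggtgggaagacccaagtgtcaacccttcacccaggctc
Ehhadh, chr16:21787835-21788084: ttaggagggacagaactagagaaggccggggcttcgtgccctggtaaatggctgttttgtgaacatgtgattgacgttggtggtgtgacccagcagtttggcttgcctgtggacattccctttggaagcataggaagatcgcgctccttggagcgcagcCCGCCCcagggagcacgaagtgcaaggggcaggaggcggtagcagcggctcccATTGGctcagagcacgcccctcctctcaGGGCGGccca
Ppargc1a, chr5:51567726-51567975: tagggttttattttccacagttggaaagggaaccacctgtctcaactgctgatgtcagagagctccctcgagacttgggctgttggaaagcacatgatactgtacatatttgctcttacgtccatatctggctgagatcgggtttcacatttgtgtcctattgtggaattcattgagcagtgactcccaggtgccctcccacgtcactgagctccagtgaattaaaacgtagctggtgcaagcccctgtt
Hadha, chr5:30154981-30155230: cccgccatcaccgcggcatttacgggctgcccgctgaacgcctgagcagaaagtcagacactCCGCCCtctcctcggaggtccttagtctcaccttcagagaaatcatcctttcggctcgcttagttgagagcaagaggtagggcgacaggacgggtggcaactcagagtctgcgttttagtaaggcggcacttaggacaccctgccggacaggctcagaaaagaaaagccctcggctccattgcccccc

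Promoter windows were available for 29 of the 35 members, in 32 windows. A direct repeat of the hexamer AGGTCA with 1 base between the copies, the form that PPARalpha is known to bind, was searched on both strands with up to 2 mismatches. It was in 2 of the 32 windows, from Creb3l3 and Etfa, and in 3.24% of all 32851 windows in the table. The CCAAT box was in 13 of the 32 member windows against 33.8% of all windows, and the GC box in 17 of the 32 against 32.7%. The cyclic AMP element TGACGTCA, the E-box CACGTG and the letters TATAAA were in no member's window, against 1.55%, 6.02% and 12.4% of all windows. Matches of different motifs did not overlap. In the printed runs, Pdk4 had a CCAAT box 131 bases before its start, Ehhadh had a CCAAT box and 2 GC boxes, Hadha had 1 GC box, and Ppargc1a had no match to any motif searched. These matches describe the letters of short windows and are no evidence of binding.

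Most genes of the pathway differed little between the arrays. Over the 34 members the range from the lowest to the highest array had a median of 0.22 log2, against 0.31 over all 13308 measured genes. The 2 sets are not matched for level. Measured genes had a median log2 value between 4.97 and 5.02 per array, and most members were brighter, with means from 3.76 to 11.64. Whether the smaller range goes with brightness was not tested. In whole tissue, fewer cells of a type and less RNA per cell cannot be told apart. In 29 members no comparison between 2 arrays reached 1.5-fold. The other 5 members reached it in at least 1 comparison, where 9.05% of measured genes did, and they were Abcd2, Pdk4, Crat, Ehhadh and Ppargc1a. Ppargc1a was nearest above that size, with a largest difference of 1.7-fold, and Crot nearest below it, with 1.48-fold.

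**Figure D1:**
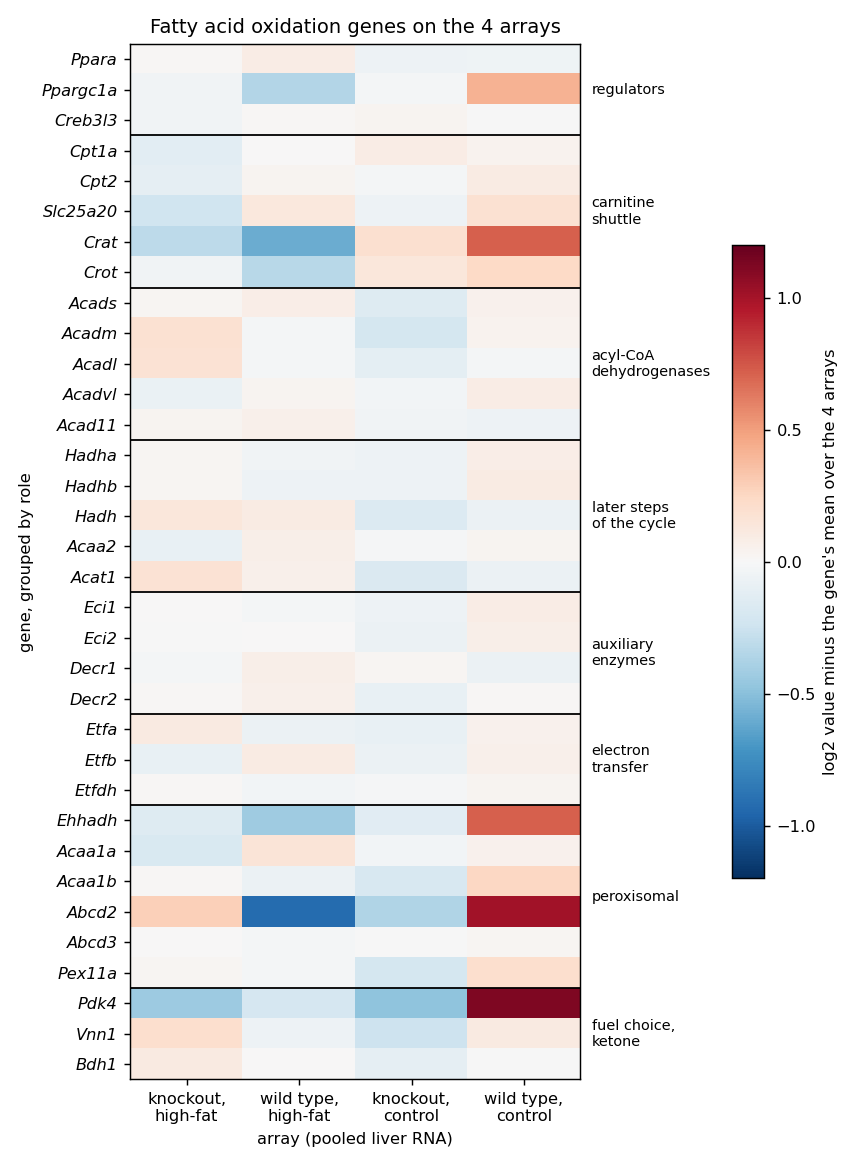
Log2 value of each of the 34 members minus that gene's mean over the 4 arrays (colour), with genes as rows grouped by role and the 4 arrays as columns; red is above the mean and blue below. Abcd2, Pdk4, Crat, Ehhadh and Ppargc1a are reddest on the wild-type control array, and most other rows are pale.

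The 5 genes had their highest value on the wild-type control array, which was the highest array for 31.1% of all measured genes that reached 1.5-fold in some comparison. This array enters the diet comparison in wild type and the genotype comparison on control diet, so those comparisons share it and are not independent. The diet comparison in knockout and the genotype comparison on high-fat diet do not use it. Over all 34 members the wild-type control array was the highest for 17, against 28% of measured genes, and the knockout control array was the lowest for 17, against 22.3%.

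Among the regulators, Ppara, which encodes PPARalpha, was nearly level. Its log2 value was 8.91 in knockout and 8.99 in wild type on high-fat diet, and 8.83 in knockout and 8.85 in wild type on control diet. Creb3l3, which encodes CREBH, lay between 9.79 and 9.87 on the 4 arrays. Ppargc1a, which encodes PGC-1alpha, had 5.93 in knockout and 5.61 in wild type on high-fat diet, and 5.95 in knockout and 6.38 in wild type on control diet. The wild-type control array was the highest and the wild-type high-fat array the lowest, with the 2 knockout arrays between them and 0.02 apart. The difference between high-fat and control diet was thus -0.02 in knockout and -0.77 in wild type.

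In the carnitine shuttle, all 5 members had lower values after high-fat than after control diet in both genotypes. Lower at all were 47.7% of measured genes in knockout and 55% in wild type. The medians of the 5 were -0.19 in knockout, against 0.01 over all measured genes, and -0.07 in wild type, against -0.03. Crat, the carnitine acetyltransferase that exchanges acetyl groups between carnitine and CoA, had the largest differences. Its log2 value was 7.32 in knockout and 7.04 in wild type on high-fat diet, and 7.83 in knockout and 8.35 in wild type on control diet. Both control arrays were above both high-fat arrays, by -0.51 in knockout and -1.31 in wild type as high-fat minus control. Crat was also read by a dimmer probe set (17369232), with values between 3.81 and 4.12, which differed with diet by -0.30 in knockout and 0.05 in wild type. With the mean of both probe sets the diet difference of Crat in wild type was -0.63, short of 2-fold.

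Crot, the peroxisomal carnitine octanoyltransferase, had 11.60 in knockout and 11.31 in wild type on high-fat diet, and 11.78 in knockout and 11.88 in wild type on control diet. Its control arrays were likewise above its high-fat arrays. Cpt1a, the outer membrane enzyme that controls entry into the shuttle, lay between 10.28 and 10.50. Cpt2, the enzyme of the inner membrane, lay between 9.39 and 9.59. Slc25a20, the carrier that exchanges acylcarnitine for carnitine, had 8.09 in knockout and 8.46 in wild type on high-fat diet, and 8.27 in knockout and 8.52 in wild type on control diet, so both knockout arrays were below both wild-type arrays.

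The enzymes of the mitochondrial cycle were close to level. Of the acyl-CoA dehydrogenases, which take the first step, Acadm for medium chains had 11.41 in knockout and 11.21 in wild type on high-fat diet, and 11.02 in knockout and 11.28 in wild type on control diet. It was highest in knockout on high-fat diet and lowest in knockout on control diet, which are 0.39 apart. Acadl, for long chains, had the same highest and lowest arrays, 0.29 apart. Acads for short chains, Acadvl for very long chains and Acad11 had ranges of 0.23, 0.17 and 0.12.

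For the later steps, Hadh, the dehydrogenase of short 3-hydroxy acids, had 11.38 in knockout and 11.34 in wild type on high-fat diet, and 11.07 in knockout and 11.16 in wild type on control diet. Acat1, the thiolase that also serves ketone body metabolism, had 11.60 in knockout and 11.49 in wild type on high-fat diet, and 11.26 in knockout and 11.36 in wild type on control diet. In both genes the high-fat arrays were above the control arrays in each genotype, by 0.30 and 0.34 in knockout and by 0.17 and 0.13 in wild type. Acaa2, the thiolase of the last step, lay between 11.25 and 11.40.

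Hadha and Hadhb encode the subunits of the trifunctional protein, and they are neighbours that start in opposite directions 273 bases apart, so that their promoter windows share 228 bases. They were the 1 pair of members that neighbour each other among protein-coding genes of the RefSeq table on GRCm38.p6. Hadha differed with diet by 0.08 in knockout and -0.12 in wild type, and Hadhb by 0.08 and -0.16 in the same order. On high-fat diet knockout and wild type differed by 0.07 for Hadha and 0.08 for Hadhb, and on control diet by -0.13 and -0.16. The Hadhb probe set had values between 3.70 and 3.86, close to the filter value of 3.47, and signal over background is not known for these files, so its small differences carry little information.

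The auxiliary enzymes Eci1, Eci2, Decr1 and Decr2, which prepare unsaturated fatty acids for the cycle, had ranges between 0.14 and 0.15. Of the electron transfer genes, Etfa and Etfb encode the subunits of the flavoprotein, with ranges of 0.20 and 0.19, and Etfdh encodes the dehydrogenase that passes its electrons on, with a range of 0.07.

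Peroxisomal genes held the widest spread. Abcd2, a transporter that brings very long chain acyl-CoA into the peroxisome, had 7.11 in knockout and 5.90 in wild type on high-fat diet, and 6.46 in knockout and 7.83 in wild type on control diet. The order of the arrays was therefore wild-type control, knockout high-fat, knockout control and wild-type high-fat. High-fat diet went with a higher value in knockout, by 0.65, and a lower value in wild type, by -1.94. Knockout was above wild type on high-fat diet by 1.21 and below it on control diet by -1.37. Abcd3, a related transporter of the same membrane, lay between 11.04 and 11.09, the smallest range of all 34 members.

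Ehhadh, the bifunctional enzyme of the peroxisomal cycle, had 9.39 in knockout and 9.12 in wild type on high-fat diet, and 9.41 in knockout and 10.26 in wild type on control diet. The wild-type control array stood above the other 3, which were within 0.29 of each other. Pex11a, which takes part in peroxisome division, had 8.02 in knockout and 7.98 in wild type on high-fat diet, and 7.79 in knockout and 8.20 in wild type on control diet. The thiolase gene Acaa1b had 9.73 in knockout and 9.65 in wild type on high-fat diet, and 9.53 in knockout and 9.97 in wild type on control diet. Pex11a and Acaa1b thus had the same order of arrays. The closely similar gene Acaa1a had another order, with 6.65 in knockout and 6.98 in wild type on high-fat diet, and 6.79 in knockout and 6.88 in wild type on control diet. The coding sequences of Acaa1a and Acaa1b are alike, so either probe set may read both and their values are uncertain.

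Pdk4, the kinase that shuts off pyruvate dehydrogenase and so spares glucose, had the largest gap of all members between its highest array and the next. It had 5.23 in knockout and 5.46 in wild type on high-fat diet, and 5.18 in knockout and 6.78 in wild type on control diet. The wild-type control array was 1.32 above the next array, while the other 3 lay within 0.28. The diet difference was 0.05 in knockout and -1.32 in wild type, and the genotype difference -0.23 on high-fat diet and -1.60 on control diet.

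Vnn1, a pantetheinase that releases a precursor of CoA, had 8.38 in knockout and 8.12 in wild type on high-fat diet, and 7.93 in knockout and 8.29 in wild type on control diet. The knockout control array was the lowest. Bdh1, which interconverts the ketone bodies acetoacetate and beta-hydroxybutyrate, had 7.54 in knockout and 7.44 in wild type on high-fat diet, and 7.33 in knockout and 7.43 in wild type on control diet. Its whole range was 0.21.

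**Figure D2:**
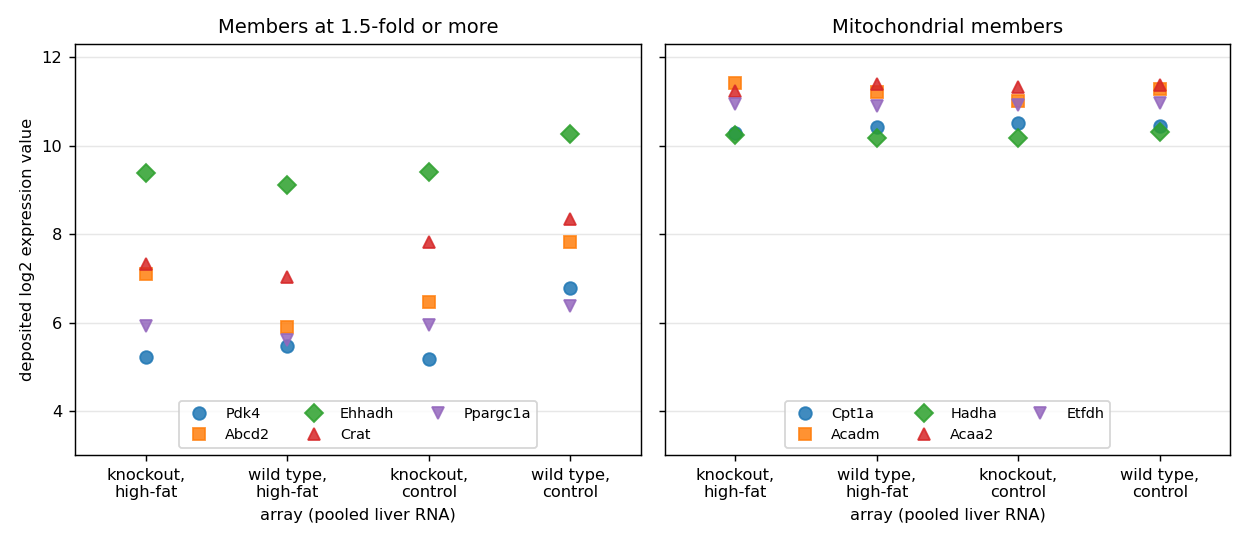
Deposited log2 expression value (vertical axis) on each of the 4 arrays (horizontal axis), 1 point per gene and array, for the 5 members that reached 1.5-fold (left) and for 5 mitochondrial members (right); levels are to be compared within a gene, not between genes. The left-hand genes are highest on the wild-type control array, where Pdk4 is at 6.78 and Ehhadh at 10.26, while on the right Etfdh stays between 10.90 and 10.97.

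The diet comparison asked how high-fat feeding went with these genes in each genotype. In knockout 21 of 34 members were higher on high-fat diet, against 52.2% of measured genes, with a median of 0.07 against 0.01 over all measured genes. Abcd2 was the 1 member at 1.5-fold or more, and it was higher, as 2.28% of measured genes were. None reached 2-fold, where 0.323% of measured genes were higher and 0.286% lower. In wild type 21 of 34 were lower, against 55% of measured genes, with a median of -0.06 against -0.03. There 5 members were at least 1.5-fold lower, against 2.52% of measured genes, and 4 of them, Abcd2, Pdk4, Crat and Ehhadh, at least 2-fold lower, against 0.564%. No member was 1.5-fold higher in wild type, against 1.68% of measured genes. The medians of both comparisons were within 0.1 log2 of those of all measured genes.

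The genotype comparison asked how loss of Myd88 in hepatocytes went with the same genes on each diet. On high-fat diet 19 of 34 members were higher in knockout, against 54% of measured genes, with a median of 0.03 against 0.02. Abcd2 was the 1 member at 1.5-fold or more, and it was at least 2-fold higher, as 0.225% of measured genes were. On control diet 30 of 34 members were lower in knockout, against 53.3% of measured genes, with a median of -0.13 against -0.02. Decr1, Cpt1a, Creb3l3 and Acad11 were the exceptions, none of them above 0.10. At least 1.5-fold lower were Pdk4, Abcd2 and Ehhadh, against 0.864% of measured genes, and Pdk4 and Abcd2 were at least 2-fold lower, against 0.158%. By role, the 6 members grouped here as peroxisomal were all lower, with a median of -0.43 and values from -1.37 to -0.03. Crot, also peroxisomal but counted with the carnitine shuttle, differed by -0.09. Peroxisomal genes placed in other roles or in the second list described below are not in this count. That second list had 40 of 55 genes lower and 15 higher. Among the members, 5 of 5 genes of the later steps and 3 of 3 electron transfer genes were also lower. So were 3 of 3 genes of fuel choice and ketone bodies (Pdk4, Vnn1 and Bdh1). The carnitine shuttle and the acyl-CoA dehydrogenases each had 4 of 5 lower, the auxiliary enzymes 3 of 4 and the regulators 2 of 3. Most members were within 0.25 log2. Lower values in knockout on control diet were not particular to the members. They were seen in 15 of 18 fatty acid synthesis genes (median -0.16) and in 9 of 11 genes of the pyruvate dehydrogenase list (-0.21). Nuclear receptors and coregulators had 19 of 24 lower (-0.10), and respiratory chain genes 22 of 31 (-0.05). Acute phase genes went the other way, with 0 of 23 lower. Higher in knockout on high-fat diet and lower in knockout on control diet were 19 of 34 members, or 55.9%, against 28.6% of measured genes. These are the same 19 members counted as higher on high-fat diet, a share near the 54% of measured genes. The joint count therefore mostly restates the 30 of 34 members lower on control diet and is no separate result. The array comparisons on the 2 diets share no array.

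**Figure D3:**
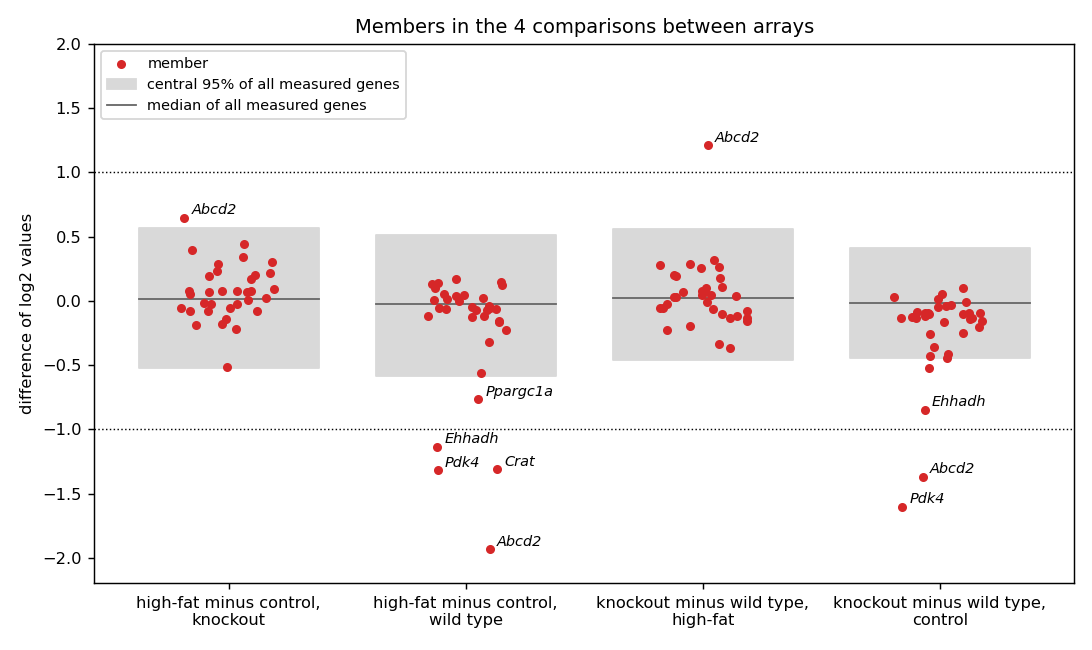
Difference of log2 values (vertical axis) of each member (red points) in the 4 comparisons between 2 arrays (horizontal axis), with the central 95% of all measured genes in grey and their median as a line; dotted lines mark 2-fold. Named members reach 1.5-fold: they lie below the line in wild type with diet and on control diet with genotype, while Abcd2 lies above it in the other comparisons.

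The difference between the diet differences, knockout minus wild type, was positive for 24 of 34 members, against 55.9% of measured genes. It was positive and at least 1.5-fold for 6 members, against 5.12% of measured genes, and negative at that size for 0, against 3.11%. These were Abcd2 with 2.58, Pdk4 with 1.37, Ehhadh with 1.11, Crat with 0.80, Ppargc1a with 0.75 and Vnn1 with 0.61. This quantity carries the error of all 4 arrays and cannot be tested with 1 array per group.

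A model with genotype and diet as additive terms was fitted over all measured genes with limma, whose single residual degree of freedom is that same difference. For diet, limma called 0 members and 0% of measured genes after Benjamini-Hochberg adjustment over all genes, and 2 members, Crat and Crot, had an unadjusted p under 0.05, as 9.3% of measured genes did. The diet effect of Crat was -0.91 (SE 0.21, limma adjusted p = 0.336) and that of Crot -0.38 (SE 0.14, limma adjusted p = 0.521), lower on high-fat diet in both genotypes. For genotype, limma called 0 members and 0% of measured genes, and 2 members, Pdk4 and Slc25a20, had an unadjusted p under 0.05, as 4.26% of measured genes did. Pdk4 was lower in knockout by -0.92 (SE 0.31) and Slc25a20 by -0.31 (SE 0.12), with a smallest limma adjusted p over the members of 0.975. Abcd2, whose diet differences had opposite signs, had the largest error of the members, with a diet effect of -0.64 (SE 0.56).

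Other genes of fatty acid oxidation and PPARalpha targets were read from a second list of 64 genes, of which 55 were measured. The list also held genes counted with fatty acid synthesis, among them Acacb, so its counts are not of oxidation genes alone. In wild type 36 were lower on high-fat diet, against 55% of measured genes, with a median of -0.12 against -0.03. At 2-fold 6 were below control diet, Acacb among them, against 0.564% of measured genes, and 0 above it, against 0.488%. In knockout 28 were higher, against 52.2%, with a median of 0.01, the same as over all measured genes. At 2-fold 1 was above control diet, against 0.323%, and 2 were below it, Acacb again among them, against 0.286%. On control diet 40 of 55 were lower in knockout, against 53.3%, and 4 of them at least 2-fold, against 0.158%. On high-fat diet 26 were higher in knockout, against 54%. At least 1.5-fold in some comparison were 15 of the 55, against 9.05% of measured genes, and the wild-type control array was the highest for 11 of the 15, against 31.1% of such genes.

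The acyl-CoA thioesterase genes of this list, which release free fatty acids from CoA, differed in their order of arrays. Acot1 had 5.47 in knockout and 5.30 in wild type on high-fat diet, and 5.51 in knockout and 6.71 in wild type on control diet. As in Pdk4, the wild-type control array stood above 3 arrays close to each other. Acot2 had 7.80 and 7.35 on high-fat diet, and 7.26 and 8.33 on control diet, knockout before wild type. Acot3 had 5.58 and 5.33 on high-fat diet, and 4.36 and 5.92 on control diet in the same order, so its knockout control array was the lowest. Acot4 had 5.21 and 4.94 on high-fat diet, and 4.26 and 5.10 on control diet in that order, highest in knockout on high-fat diet, and Acot12 was level with a range of 0.13. The first 4 of these genes are closely similar to each other and their probe sets may read more than 1 copy.

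Slc22a5, the carnitine uptake transporter, had 5.51 in knockout and 5.45 in wild type on high-fat diet, and 6.11 in knockout and 6.79 in wild type on control diet. The fatty acid hydroxylase gene Cyp4a14 had 9.92 in knockout and 9.15 in wild type on high-fat diet, and 10.84 in knockout and 11.94 in wild type on control diet. The hormone gene Fgf21 had 5.14 in knockout and 5.16 in wild type on high-fat diet, and 6.32 in knockout and 7.31 in wild type on control diet. In these genes and in Cyp4a31 both control arrays were above both high-fat arrays, as in Crat, so that diet differed the same way in both genotypes. Acacb, whose product makes the malonyl-CoA that blocks Cpt1a's enzyme, had 5.19 in knockout and 5.34 in wild type on high-fat diet, and 6.64 in knockout and 6.82 in wild type on control diet. Its diet difference was -1.45 in knockout and -1.47 in wild type.

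**Figure D4:**
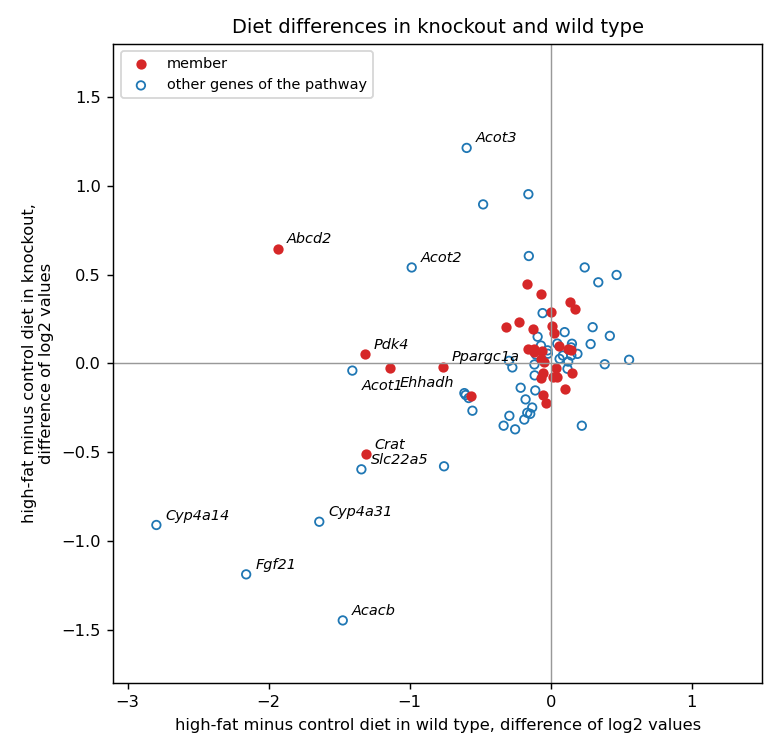
High-fat minus control diet as a difference of log2 values in knockout (vertical axis) and in wild type (horizontal axis), for the 34 members (filled red) and the 55 other genes of the pathway (open blue); the 2 axes share no array. Pdk4, Ehhadh and Acot1 lie to the left near the horizontal line, Abcd2 lies to the upper left, and Crat, Fgf21 and Cyp4a14 to the lower left.

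Of the partner genes of the regulators, 24 nuclear receptors and coregulators were measured. Their median absolute difference with diet was 0.24 in knockout and 0.23 in wild type, against 0.16 and 0.15 over all measured genes. With genotype it was 0.15 on high-fat and 0.13 on control diet, against 0.15 and 0.12. In any comparison between 2 arrays 0 reached 2-fold, where 52 to 140 of 13308 measured genes did per comparison. Nr1d1, a repressor of the clock, was the furthest with -0.80 for diet in knockout. Pparg had 5.02 in knockout and 4.46 in wild type on high-fat diet, and 4.50 in knockout and 5.07 in wild type on control diet. In a list of pyruvate dehydrogenase subunits, their regulators and a pyruvate carrier, 10 of 11 measured genes were higher on high-fat diet in knockout. Of all measured genes 52.2% were, and the median of the list was 0.33. In wild type 7 of 11 were lower, against 55%, with a median of -0.10, and 0 reached 1.5-fold. Respiratory chain genes, which receive the electrons, had medians between -0.07 and -0.03 in the 4 comparisons, with 0 of 31 at 1.5-fold, against 9.05% of measured genes in any of the 4.

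Markers of other cells and of inflammation also differed between the arrays. Acute phase genes had 23 of 23 measured genes higher in knockout than in wild type on control diet, against 6195 of all 13308. Their summed linear level was 60936 in knockout and 59299 in wild type on high-fat diet, and 74657 in knockout and 48531 in wild type on control diet. For 17 of 23 the lowest value was on the wild-type control array, the array on which the 5 varying members were highest. Exocrine pancreas markers were lowest on that array for 14 of 14 and highest on the knockout high-fat array for 14 of 14, with a summed linear level of 7318 in knockout and 3158 in wild type on high-fat diet, and 3507 in knockout and 668 in wild type on control diet. Skeletal muscle markers were highest on the wild-type high-fat array for 12 of 12, of which 7 were above the filter, with sums of 140 in knockout and 312 in wild type on high-fat diet, and 147 in knockout and 159 in wild type on control diet. The same array was the lowest for Abcd2, Ehhadh, Crat and Ppargc1a. Markers of Kupffer cells and macrophages summed to 2221 in knockout and 2239 in wild type on high-fat diet, and to 2487 in knockout and 2548 in wild type on control diet. Lymphocyte markers summed to 324 in knockout and 419 in wild type on high-fat diet, and to 265 in knockout and 305 in wild type on control diet. Of their 9 probe sets 4 were above the filter. This sum mostly follows Ighm, with a mean log2 value of 7.85, while the next brightest, Nkg7, had 4.07. Neutrophil markers were above the filter in 0 of 8. Endothelial markers summed to 2059 in knockout and 1854 in wild type on high-fat diet, and to 2066 in knockout and 2160 in wild type on control diet. For 5 of 8 the wild-type control array was the highest, against 28% of measured genes, and for 5 of 8 the wild-type high-fat array the lowest. Stellate cell and fibroblast markers summed to 2230 in knockout and 1934 in wild type on high-fat diet, and to 1964 in knockout and 1942 in wild type on control diet. That sum mostly follows Dcn, with a mean log2 value of 10.67, while the next brightest, Lrat, had 7.59. Adipocyte markers summed to 221 in knockout and 173 in wild type on high-fat diet, and to 161 in knockout and 149 in wild type on control diet. Of their 8 probe sets 4 were above the filter, among them Fabp4 with 7.07 in knockout and 6.43 in wild type on high-fat diet, and 6.31 in knockout and 6.10 in wild type on control diet, while the defining markers Adipoq and Lep were under it. Bile duct markers summed to between 59 and 65. The part of these in the members' differences was not tested. For the other highest and lowest arrays of these markers, the share of all measured genes was not counted.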

How the data were processed

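The authors deposited 1 log2 value for each probe set and array. The submitters' processing notes name RMA (robust multi-array averaging) and the Affymetrix Expression Console software, and the sources used here give no version. RMA normalises between arrays and compresses differences of dim probe sets. Of 41345 probe sets, 23521 had 1 gene symbol, 1814 several and 16010 none in the platform annotation, and only the first were named. Each gene was read from its probe set with the highest mean, and genes with a mean under the 40th percentile (3.47) were left out.

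Differences are subtractions of log2 values and were counted at 1.5-fold and 2-fold. Additive effects came from limma 3.58.1 under R 4.3.3 (functions lmFit and eBayes, Benjamini-Hochberg at 0.05 over 13308 genes). On simulated data with additive effects only, the fit returned the size of the changes put in. That check held no departure from additive effects and so does not cover the p-values printed here. These p-values rest on how far the 4 pooled arrays depart from additive effects, moderated over all genes. They measure no spread between replicate arrays or between mice. Tables and plots used Python 3.11.15, pandas 2.3.3, NumPy 2.4.6 and matplotlib 3.10.9. Alternatives were no filter, the mean of a gene's probe sets, 3 other normalisations and another prior. Of the other lists, the text could name up to 5 genes with the largest differences and any at 2-fold. The members and lists were chosen with earlier results of these data known.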

Additional observations from a re-analysis of the deposited data

Results flagged for a closer look

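Abcd2 went opposite ways with diet in the 2 genotypes, by 0.65 in knockout and -1.94 in wild type as high-fat minus control, and opposite ways with genotype on the 2 diets, by 1.21 on high-fat and -1.37 on control diet as knockout minus wild type. Acot3 went opposite ways with diet, by 1.21 in knockout and -0.60 in wild type. Cyp4a14 went opposite ways with genotype, by 0.78 on high-fat diet and -1.11 on control diet. The fatty acid uptake gene Cd36 did so too, by 0.72 on high-fat diet and -0.66 on control diet. Of the acute phase list, diet went with lower values in knockout and higher values in wild type for Saa2 (-1.52 and 5.76), Orm2 (-1.36 and 1.92), Lcn2 (-0.90 and 2.59) and Mt2 (-0.66 and 1.56). These are the genes of all lists used that were at least 1.5-fold both ways, named after their values were seen, and with 1 array per group none of these differences was tested.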

How the results depend on the processing

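Of the 54 summary values (medians and counts of the members and lists, and limma's counts), all kept their size under the alternatives run for them, counts within 1.5 times and medians within 0.1 log2, except limma's counts over all genes. The limma count for diet was 0 on the deposited values, 70 after cyclic loess and 5 with each array centred on its median, and for genotype 0 on the deposited values and 3 after cyclic loess. The cause was not tested. None of these calls was a member: 0 members were called under any of the 6 alternatives. Among the 360 differences of single genes, 0 of those at 2-fold or more changed sign. Smaller differences were not checked for a change of sign. Crat moved most, under the mean of its probe sets. There the count of members at least 2-fold lower with diet in wild type was 3 in place of 4. No paired analysis was possible because each group is 1 array and the labels give no replicate numbers. Signal over background was not known for any probe set, which limits what the dim Hadhb probe set can show.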
